A study of Homo sapiens with 2 samples.

Results

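RNA polymerases I, II and III transcribe the nuclear genes of human cells, and the genes for their subunits were followed here in MDA-MB-231 cells with and without knockdown of UGT8. The members were all probe sets whose only gene symbol in the platform annotation begins with POLR1, POLR2 or POLR3 and a further letter. These were 73 of 45278 probe sets with 1 gene symbol, and they stood for 31 of 18244 gene symbols. Of the 31, 29 encode subunits, POLR2M encodes a Pol II-associated protein, and POLR1HASP is a transcript antisense to the POLR1H locus.

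MDA-MB-231 is an established human breast carcinoma line of mesenchymal character without hormone receptors. UGT8 encodes the ceramide galactosyltransferase that makes galactosylceramide. The knockdown group was 1 array of a clone with stable UGT8 knockdown, and the control group was 1 array of the parental line. Both were grown in medium with 5.6 mmol/L glucose and harvested for RNA 48 h after passage. Which reagent lowered UGT8, and whether a control vector was used, is not given here. Since the knockdown cells were 1 clone set against an uncloned line, an effect of UGT8 and a clonal difference cannot be told apart. With 1 array a group there was no replicate check, no test was run, and every difference describes these 2 arrays.

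Values are RMA levels on the log2 scale, and a difference is the UGT8-knockdown level minus the control level. A gene was read by its brightest probe set, that is, the one with the highest mean over both arrays. It counted as measured when that mean reached a floor of 6.65, the median of all probe sets other than spike-in controls, which left 10426 genes. The background probe sets averaged 4.73 on the knockdown array and 4.73 on the control array. The targeted gene was low on the array labelled as knockdown: the 3 UGT8 probe sets read 6.61, 5.78 and 4.79 on the knockdown array, against 8.95, 7.47 and 7.06 on the control array, differences of -2.34, -1.68 and -2.27. All 5 markers of the mesenchymal line (VIM, CD44, SPARC, AXL, CAV1) were past the floor, and the hormone receptor genes ESR1 and PGR were below it. CDH1, which encodes the epithelial cadherin and was listed as absent from this line, read 7.66 on the knockdown array and 8.01 on the control array. Of 10 measured markers of leukocytes, endothelium, red cells and adipocytes, 4 were past the floor (PECAM1, HBB, CD14, ADIPOQ), and the 10 ranged from 3.40 to 7.37 on the knockdown array and from 3.56 to 8.46 on the control array. PECAM1 differed by -1.09 and CD14 by -0.73, sizes that 1 and 4 of the 29 subunit genes exceeded, and the other 8 lay between -0.18 and 0.12. Their part in the differences was not tested. The 3' minus 5' difference of ACTB, a reading of RNA integrity, was 0.90 on the knockdown array and 0.49 on the control array, and that of GAPDH was 0.19 and 0.18. Its part in the differences was not tested either.

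Each nuclear RNA polymerase is built around a large catalytic pair of subunits, with a pair of smaller assembly subunits, a protruding stalk and a set of small subunits that all 3 enzymes share. Pol I makes the precursor of ribosomal RNA in the nucleolus, Pol II makes messenger RNA precursors, and Pol III makes transfer RNA, 5S ribosomal RNA and other short RNAs. The output of Pol I and Pol III tracks cell growth, and both are often high in cancer cells. Pol I and Pol III also carry built-in subunits that resemble general transcription factors of Pol II.

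RefSeq's promoter table (GRCh38.p14) holds windows of 250 bases before to 50 bases after a transcription start, and 22 of the 29 subunit genes matched it, with 28 windows. Of the 9 genes whose brightest probe set was at least 1.5-fold higher, 7 had a window. Shown are windows of the 3 of them that held a motif searched (POLR2F, POLR3B, POLR2D), to show where the letters lie, and that of POLR2A as 1 of the 4 that held none. The others with none, not shown, are POLR1A, POLR2L and POLR3K. Capitals mark matches, on either strand, to CCGGAAG (the core bound by ETS factors) and GCATGCGC (a core of the NRF1 site), and matches that overlap run together. POLR2F lies at chr22:37953449-37953748 on the plus strand, POLR3B at chr12:106357860-106358159 on the plus strand, POLR2D at chr2:127858106-127858405 on the minus strand and POLR2A at chr17:7484116-7484415 on the plus strand.
POLR2F: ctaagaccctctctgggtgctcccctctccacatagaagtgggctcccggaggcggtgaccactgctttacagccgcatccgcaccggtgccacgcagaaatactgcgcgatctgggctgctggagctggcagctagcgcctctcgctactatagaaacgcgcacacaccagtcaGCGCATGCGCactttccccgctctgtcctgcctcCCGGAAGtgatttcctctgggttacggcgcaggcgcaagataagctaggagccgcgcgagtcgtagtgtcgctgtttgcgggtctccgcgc
POLR3B: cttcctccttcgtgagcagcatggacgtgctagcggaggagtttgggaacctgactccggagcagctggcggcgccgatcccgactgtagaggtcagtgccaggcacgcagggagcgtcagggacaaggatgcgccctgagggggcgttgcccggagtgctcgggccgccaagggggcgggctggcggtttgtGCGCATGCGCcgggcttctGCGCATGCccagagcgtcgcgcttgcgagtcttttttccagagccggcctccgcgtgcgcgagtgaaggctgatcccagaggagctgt
POLR2D: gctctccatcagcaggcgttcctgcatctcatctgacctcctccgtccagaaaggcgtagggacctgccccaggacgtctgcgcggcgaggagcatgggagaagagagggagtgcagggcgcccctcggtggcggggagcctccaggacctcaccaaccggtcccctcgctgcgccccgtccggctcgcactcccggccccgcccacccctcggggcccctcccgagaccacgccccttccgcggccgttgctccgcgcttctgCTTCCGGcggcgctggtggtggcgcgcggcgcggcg
POLR2A: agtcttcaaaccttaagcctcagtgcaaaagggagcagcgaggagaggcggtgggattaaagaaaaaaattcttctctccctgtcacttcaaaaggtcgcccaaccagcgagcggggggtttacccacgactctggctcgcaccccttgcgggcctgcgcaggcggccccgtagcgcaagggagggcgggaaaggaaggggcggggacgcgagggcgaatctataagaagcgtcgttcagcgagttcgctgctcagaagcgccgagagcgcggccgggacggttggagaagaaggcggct
The POLR2F window held both motifs, the POLR3B window shown held the NRF1 core, the POLR2D window held the ETS core, and the POLR2A window held none of the motifs searched. Over the 28 subunit windows, the ETS core was in 9 (32.1%, against 10.3% of all 35116 windows), and the NRF1 core was in 4 (14.3%, against 3.05%). The E-box CACGTG, the site of MYC and related factors, was in 4 (14.3%, against 7.26%), those of POLR1G, POLR3A, POLR3C and POLR3E. AAGATGGC, a core of the YY1 site, was in 1 (3.57%, against 2.89%), that of POLR1C. By gene, the ETS core was in 7 of 22 (POLR1B, POLR1C, POLR2C, POLR2D, POLR2F, POLR3A, POLR3C). The NRF1 core was in 3 of 22 (POLR2F, POLR2H, POLR3B). Shares by gene were not counted over the whole promoter table. The GC content of the subunit windows had a median of 61.8%, against 58.7% in all windows. Some windows of 1 gene overlap, as those of POLR2F do, so the same site can count more than once among the windows. A match describes letters and no binding, and whether genes with a motif differ more than those without was not tested.

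The polymerase subunit genes read higher on the UGT8-knockdown array across all 3 enzymes on the deposited scale, although centring on the hybridisation controls turned their median below 0. Of the 29 subunit genes past the floor, 28 were above 0 and POLR3GL alone was below, where 53.5% of all 10426 genes were above 0. By at least 1.5-fold, 9 were higher (31.0%, against 4.95% of all genes) and 0 were lower (against 6.74% of all genes). Their median difference was 0.35 (1.27-fold), against 0.03 for all genes past the floor, whose middle 50% lay between -0.19 and 0.24. The 9 genes were POLR3G, POLR1A, POLR2F, POLR1E, POLR3B, POLR2A, POLR2L, POLR3K and POLR2D. POLR2D was just inside the threshold at 1.504-fold and POLR3C just outside at 1.47-fold. When the probe sets of each gene were averaged, 5 of 28 subunit genes were at least 1.5-fold higher, against 4.27% of 8663 genes. After centring on the hybridisation controls 1 of 29 was, against 0.480% of all genes.

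**Figure D1:**
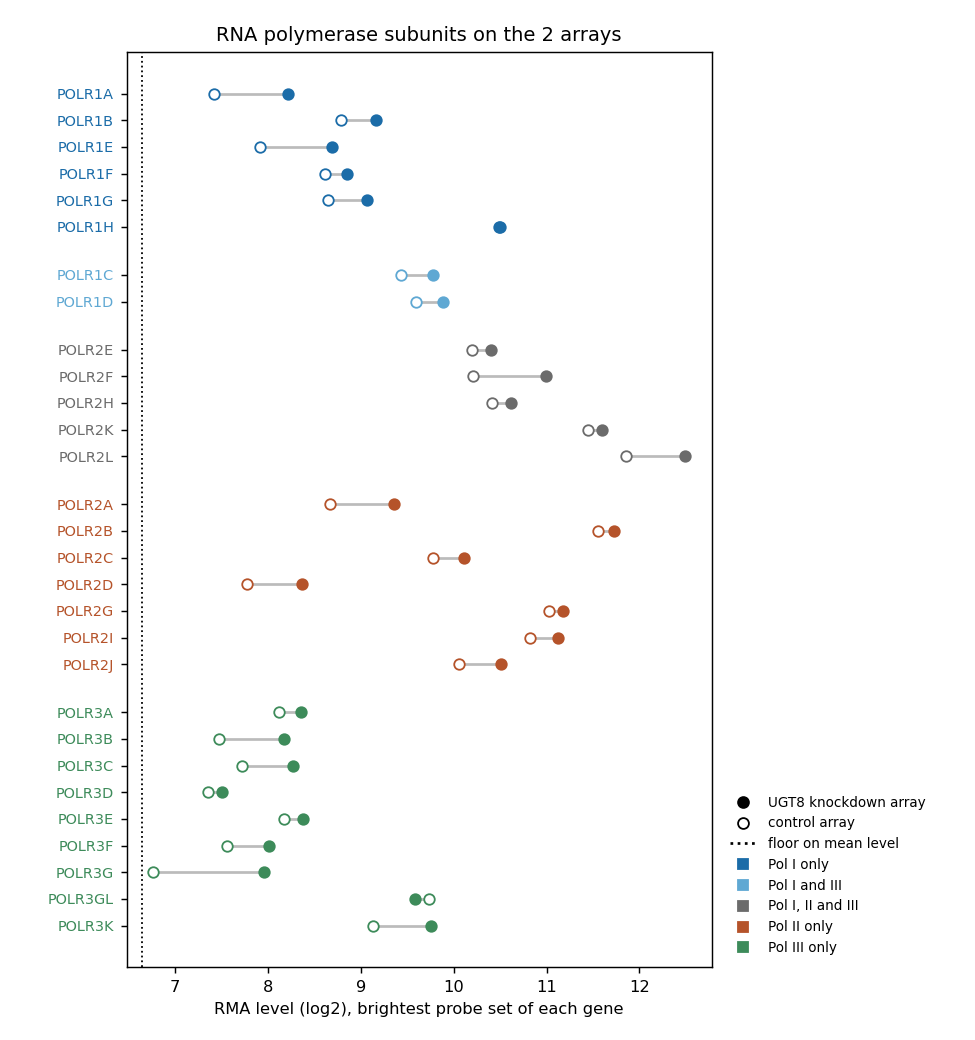
RMA level (log2, x axis) of the brightest probe set of each of the 29 subunit genes (rows, coloured by enzyme) on the UGT8-knockdown array (filled) and the control array (open), with the floor of 6.65 dotted. The filled point lies right of the open point in every row but POLR3GL, overlapping it in POLR1H, by the most in POLR3G (7.96 and 6.76), on the deposited scale; centred on the hybridisation controls, 10 of the 29 stay above 0, against 7.09% of all genes.

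Classed by enzyme, the 6 genes of Pol I alone had a median difference of 0.40, and the 9 of Pol III alone had a median of 0.45. The 7 genes of Pol II alone had a median of 0.33, the pair shared by Pol I and Pol III had 0.31, and the 5 shared by all 3 enzymes had 0.21. The genes of Pol I spanned 0.013 to 0.79, those of Pol II 0.16 to 0.68, those of Pol III -0.16 to 1.19 and the fully shared ones 0.15 to 0.78, so the classes overlapped. All 5 class medians were above the median of all genes on the deposited scale, and each turned below 0 after centring on the hybridisation controls, where the median of all genes was -0.48.

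**Figure D2:**
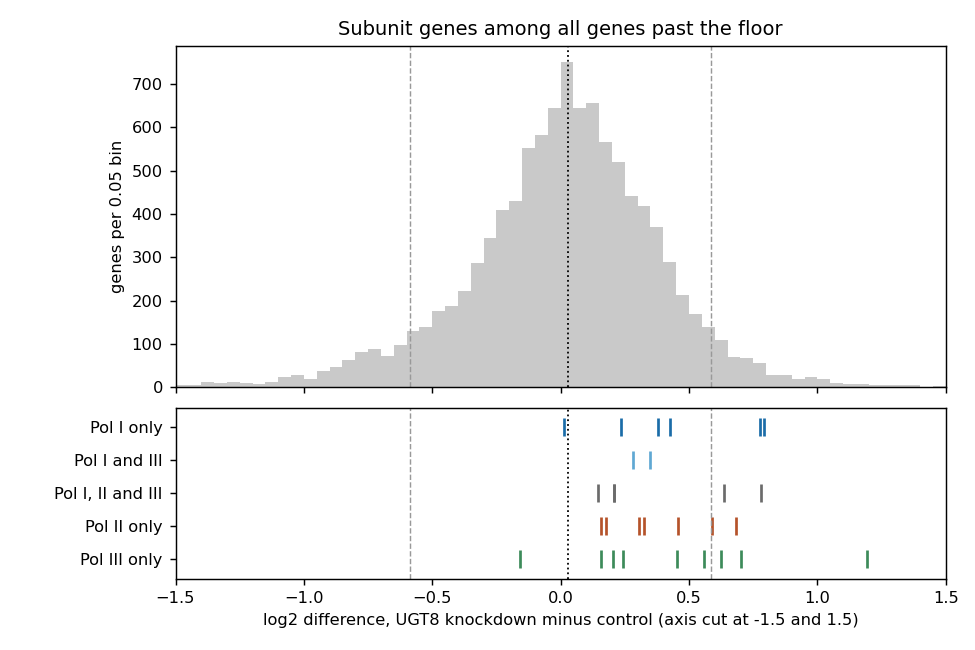
Upper panel: number of genes (y axis) by log2 difference, UGT8 knockdown minus control (x axis), for all 10426 genes past the floor. Lower panel: the 29 subunit genes as ticks, by enzyme. The dotted line is the median of all genes (0.03) and the dashed lines are 1.5-fold, and genes past 1.5 in either direction are not drawn. On this deposited scale 27 of 29 ticks lie right of the dotted line. A centring by a constant cannot change that count, because it moves the ticks and the line alike.

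The largest subunit carries the catalytic centre of each enzyme. POLR1A, the largest subunit of Pol I, read 8.21 on the knockdown array and 7.42 on the control array, a difference of 0.79 or 1.73-fold. Its other probe set, below the floor, read 6.45 and 5.81 (0.63), so both pointed the same way. POLR3A, the largest subunit of Pol III, read 8.36 on the knockdown array and 8.11 on the control array (0.24). Its other probe sets read 7.68 and 7.35 (0.34), and, below the floor, 5.11 and 5.15 (-0.041). The Pol III reading was thus nearer to the median of all genes than that of Pol I.

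POLR2A encodes the largest subunit of Pol II, whose long repeated C-terminal tail is phosphorylated during transcription, and its 3 probe sets did not give the same reading. The brightest read 9.36 on the knockdown array and 8.67 on the control array, a difference of 0.68 or 1.61-fold. The next, whose name marks possible cross-hybridisation, read 6.71 and 6.73, a difference of -0.024. The dimmest, below the floor, read 6.41 and 6.31, a difference of 0.10. The higher POLR2A reading therefore rests on its brightest probe set, and the mean over all 3 was 0.25. Past the floor, the SD over its 2 probe sets was 0.50, the widest of the 18 subunit genes with several such probe sets, whose median SD was 0.089. Over the 6056 genes of that kind in the whole table the median SD was 0.083; it says how far probe sets disagree and nothing about replicates.

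The second-largest subunit completes the active centre. POLR3B of Pol III read 8.17 on the knockdown array and 7.47 on the control array in its single probe set, a difference of 0.70 or 1.63-fold. POLR1B of Pol I read 9.17 and 8.79 (0.38), and its 6 probe sets, all past the floor, were all above 0 with a mean of 0.33 ± 0.06 (SD over probe sets). POLR2B of Pol II read 11.73 and 11.55 (0.18) in its single probe set. The enzyme order in the brightest probe sets thus differed between the catalytic subunits. In the largest subunit the lowest difference was that of Pol III, and in the second largest that of Pol II. The probe sets of POLR2A and POLR3A overlapped in difference, so the order in the largest subunit depends on the probe set read.

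The assembly subunits form a pair at the base of each enzyme, and each enzyme's pair read modestly higher in its brightest probe sets. POLR1C and POLR1D serve both Pol I and Pol III, and variants of both genes are known in Treacher Collins syndrome. POLR1C read 9.78 on the knockdown array and 9.43 on the control array (0.35). POLR1D read 9.88 and 9.60 (0.28) in its brightest probe set, whereas its other probe sets read 9.23 and 9.62 (-0.39), and 9.08 and 9.26 (-0.19). The POLR1D probe sets, all past the floor, thus pointed in opposite directions, and the mean over all 3 was -0.098. In Pol II, POLR2C read 10.11 and 9.78 (0.33), and POLR2J read 10.51 and 10.06 (0.46). POLR2J has near-identical copies in the genome, both of its probe sets are named for possible cross-hybridisation, and which copy was measured is uncertain.

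The stalk binds the emerging RNA. In Pol II it is made of POLR2D and POLR2G, and of these POLR2D read 8.36 on the knockdown array and 7.78 on the control array (0.59, 1.504-fold). A second POLR2D probe set read 7.70 and 6.97 (0.73), so both were past 1.5-fold. POLR2G, its partner, read 11.18 and 11.02 (0.16). POLR1F, a stalk subunit of Pol I, read 8.85 and 8.61 (0.24), and its 3 probe sets were all above 0.

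The built-in factor-like subunits of Pol I and Pol III differed in size. POLR1E and POLR1G form a pair in Pol I that resembles the Pol II factor TFIIF. POLR1E read 8.69 on the knockdown array and 7.91 on the control array (0.78, 1.72-fold), and its other probe sets read 8.49 and 7.90 (0.59), and 8.13 and 7.52 (0.60). All 3 POLR1E probe sets were past 1.5-fold, with a mean of 0.66 ± 0.10 (SD over probe sets). POLR1G read 9.07 and 8.64 (0.43). The corresponding pair in Pol III is POLR3D and POLR3E, which read 7.51 and 7.35 (0.16), and 8.38 and 8.17 (0.20). The brightest POLR3D probe set was the lowest of its 5, which spanned 0.16 to 0.52.

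A further group of Pol III subunits acts in initiation, and it held both extremes of the family. POLR3G and POLR3GL are paralogs that occupy the same place in the enzyme; POLR3G is the form known from stem and tumour cells, and POLR3GL the form found widely in differentiated tissues. POLR3G read 7.96 on the knockdown array and 6.76 on the control array, a difference of 1.19 or 2.29-fold, in a probe set named for possible cross-hybridisation. Its other probe set read 4.56 and 3.73 (0.82), below the background average on both arrays. POLR3G was the 1 subunit gene of 29 past 2-fold (3.45%, against 0.739% of all genes), and 39 of 10426 genes reached its difference. POLR3GL read 9.58 and 9.74 in its single probe set, a difference of -0.16, which is 1.12-fold lower. Between the paralogs the differences lay 1.35 apart on the log2 scale, a 2.55-fold shift of POLR3G relative to POLR3GL. A scaling by a constant cannot alter this distance, so it is no check of it. The POLR3G level of 6.76 on the control array lay close to the floor of 6.65. Their partners POLR3C and POLR3F read 8.27 and 7.71 (0.56), and 8.01 and 7.55 (0.45), with both past-floor probe sets of each gene above 0.

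Zinc-ribbon subunits that take part in RNA cleavage ranged from 0.013 in Pol I to 0.63 in Pol III. POLR3K of Pol III read 9.76 on the knockdown array and 9.13 on the control array (0.63, 1.54-fold), although its other probe set, below the floor, read 5.42 and 5.39 (0.034). POLR2I of Pol II read 11.13 and 10.82 (0.30) in its single probe set. POLR1H of Pol I read 10.50 and 10.49, a difference of 0.013, below the median of all genes. It was, with POLR3GL, the subunit gene on that side of the median.

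**Figure D3:**
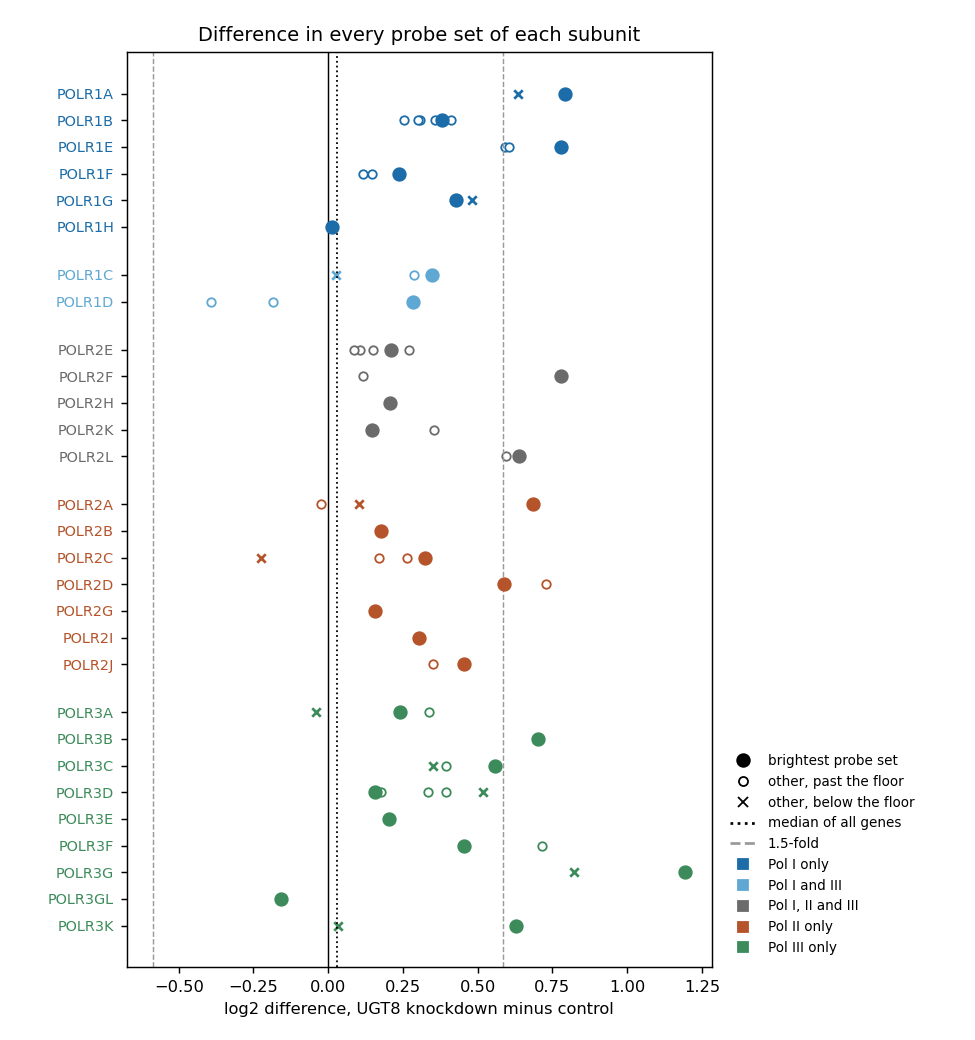
Log2 difference, UGT8 knockdown minus control (x axis), in every probe set of each of the 29 subunit genes (rows), with the brightest filled, others open, and those below the floor as crosses. On this deposited scale the probe sets of POLR1B and POLR2L lie close together, and those of POLR2A, POLR2F and POLR1D lie apart. A centring on the hybridisation controls moves every point left by 0.51.

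Of the 5 small subunits shared by all 3 enzymes, POLR2F and POLR2L were past 1.5-fold and the others were not. POLR2L, a zinc-binding assembly subunit, read 12.49 on the knockdown array and 11.86 on the control array (0.64, 1.56-fold). Its other probe sets read 11.98 and 11.34 (0.63), and 11.66 and 11.07 (0.60), a mean of 0.62 ± 0.02 (SD over 3 probe sets). POLR2F read 10.99 and 10.21 (0.78, 1.72-fold), but its other probe set read 7.18 and 7.06 (0.12), so its size rests on the brightest. POLR2E read 10.41 and 10.20 (0.21), with all 5 probe sets above 0. POLR2H read 10.62 and 10.41 (0.21), and POLR2K read 11.59 and 11.45 (0.15). The other POLR2K probe set, named for possible cross-hybridisation, read 11.41 and 11.06 (0.35). In their brightest probe sets POLR2E, POLR2H and POLR2K lay nearer to the median of all genes than the other subunits of this group.

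Probe sets within a gene mostly pointed the same way. Of 61 member probe sets past the floor, 57 were above 0 (93.4%, against 51.8% of all single-symbol probe sets past the floor), and 15 were at least 1.5-fold higher (against 4.63% of those 22902 probe sets). The 4 below 0 were 2 of POLR1D, 1 of POLR2A and that of POLR3GL. In 16 of the 18 subunit genes with several such probe sets they were all above 0, and POLR1D and POLR2A were the exceptions. The like share over all 6056 genes with several such probe sets was not counted. The median SD within a gene was 0.083 over those genes and 0.089 over the 18, so the spread was similar in both. Probe sets of 1 gene read the same RNA and can share probes, so they are not independent readings. The members that are no subunits were both below the floor: POLR2M read 5.61 on the knockdown array and 5.52 on the control array, and POLR1HASP read 4.89 and 4.49.

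The direction of the family depended on the scaling, while its distance from the median of all genes was 0.31 to 0.32 on every scaling tried. The 18 probe sets of the hybridisation controls, RNAs added with the labelled sample, had a median difference of 0.51, and the 24 of the poly-A controls, RNAs added before labelling, one of 0.075. Centred on the hybridisation controls, the subunit median was -0.17 and that of all genes -0.48, with 10 of 29 subunits above 0, against 7.09% of all genes. Centred on the poly-A controls, the subunit median was 0.27 and that of all genes -0.046, with 27 of 29 above 0, against 44.1% of all genes. The subunit median stayed 0.32 above that of all genes under either, as a constant shift moves both, and 0.31 above it after removal of a loess curve.

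**Figure D4:**
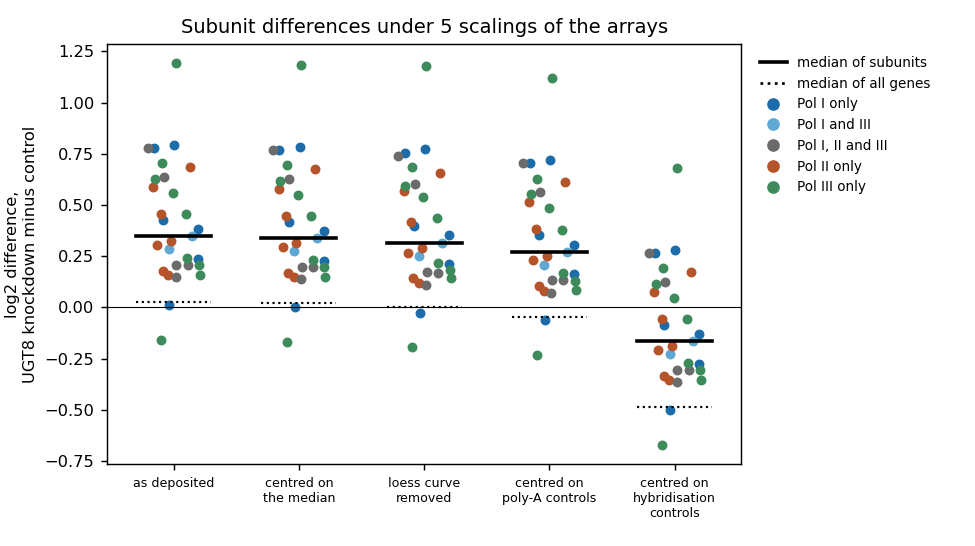
Log2 difference, UGT8 knockdown minus control (y axis), of the 29 subunit genes (points, by enzyme) under 5 scalings (x axis), with the subunit median as a solid bar and the median of all genes as a dotted bar. The solid bar is above the dotted bar in every column, and both lie below 0 (-0.17 and -0.48) in the column centred on the hybridisation controls.

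Genes for other parts of the transcription machinery were read in 6 lists with 89 genes. Past the floor were 81, with a median difference of 0.20 on the deposited scale (the hybridisation-control scale takes 0.51 from this and every median below). At least 1.5-fold, 3 were higher (3.70%, against 4.95% of all genes) and 1 was lower (1.23%, against 6.74%). When the probe sets of each gene were averaged, 0 were higher and 1 was lower, against 4.27% and 5.62% of 8663 genes. The higher calls of TEFM, GTF2H1 and GTF3C4 thus depend on how probe sets are read. The difference between these lists and the subunits was not tested. The mitochondrial list, with 5 measured genes, had a median of 0.31 and held the highest value of the 6 lists, that of TEFM, a mitochondrial transcription elongation factor, which read 9.24 on the knockdown array and 8.20 on the control array (1.04). MTERF1 (0.44) and TFAM (0.31), a mitochondrial DNA-binding factor, followed, while the mitochondrial polymerase gene POLRMT itself read 9.20 and 9.17 (0.022).

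Pol I factors had a median of 0.32 over 8 genes, none of them past 1.5-fold. TCOF1, the nucleolar treacle protein, read 8.72 on the knockdown array and 8.20 on the control array (0.52), and TAF1B, of the Pol I promoter factor SL1, read 7.84 and 7.39 (0.45). TAF1D, of the same factor, read 8.05 and 8.59 (-0.55), and was the 1 of the 8 below 0. Pol III factors had a median of 0.20 over 17 genes, with 1 past 1.5-fold, GTF3C4 of the factor TFIIIC (8.005 and 7.40, 0.61). GTF3C6 (0.58), of the same factor, and SNAPC5 (0.53), of the small nuclear RNA activating complex, followed.

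General Pol II factors had a median of 0.32 over 15 genes. GTF2H1 of TFIIH read 9.53 on the knockdown array and 8.88 on the control array (0.65) and was the 1 past 1.5-fold. GTF2A2 of TFIIA and GTF2F1 of TFIIF both differed by 0.56. Elongation factors and enzymes of the Pol II tail had a median of 0.15 over 24 genes, of which 8 were below 0. ELL2, an elongation factor of the super elongation complex, read 9.30 and 9.94 (-0.63, 1.55-fold lower) and was the 1 lower by at least 1.5-fold. SSRP1 (0.44) and SUPT16H (0.40), the subunits of the histone chaperone FACT, were the next in size. Assembly factors had the lowest median of the 6 lists, 0.080 over 12 genes, led by the prefoldin gene PFDN6 (0.51), RPAP1 (0.43) and the AAA+ ATPase gene RUVBL2 (0.40).

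**Figure D5:**
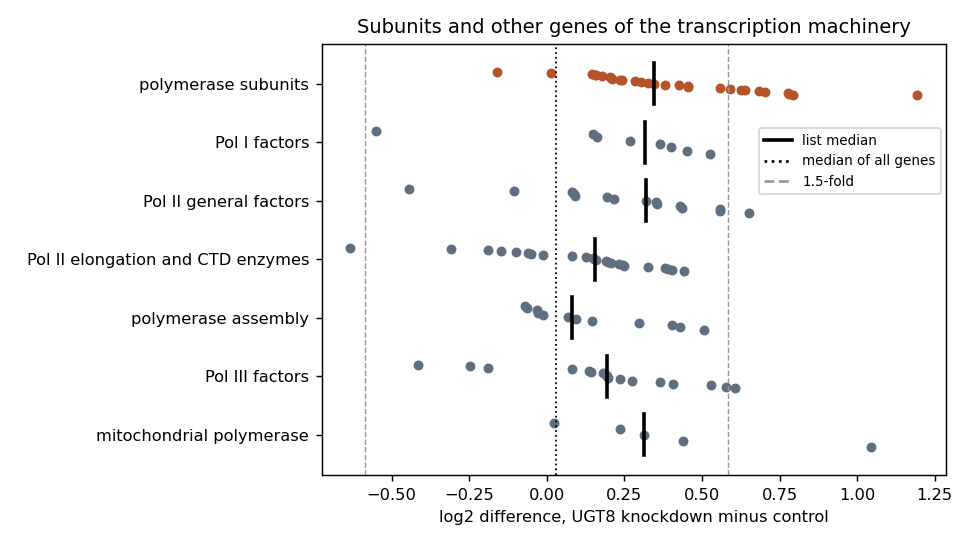
Log2 difference, UGT8 knockdown minus control (x axis), of the 29 polymerase subunit genes and of 6 lists of other transcription genes (rows), with each list's median as a bar, the median of all genes dotted and 1.5-fold dashed. On this deposited scale all 7 medians lie right of the dotted line, from 0.080 for the assembly factors to 0.35 for the subunits; a centring on the hybridisation controls puts all 7 below 0.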

How the data were processed

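Total RNA of 2 arrays was labelled with biotin from 6 ug, per the labels' protocols. The authors deposited log2 values made with RMA, per the submitters' processing notes; RMA corrects background, normalizes between arrays and summarises probes of a probe set. Its version and the genome build: not given in the sources used here. Both arrays had a median of 6.64. Such normalization removes a shift shared by most transcripts.

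The members and all lists were chosen with earlier results of these data known. Of 49495 probe sets, 202 were controls. The platform annotation gave 1 gene symbol to 45278, several to 1333 and none to 2682. Symbols were updated by gene ID to RefSeq's for GRCh38.p14, which left the members the same. All member genes are named, with every probe set of POLR2A, of genes past 1.5-fold and of genes whose bright probe sets disagree; from each other list the 3 largest absolute differences are named. POLRMT and single markers were added after their values were seen. The number of arrays limits the precision. Promoter windows and sequences are RefSeq's. The counting of genes past a fold was tested on simulated data with planted 2-fold changes and little noise. That checks the counting and says nothing about the calls on these arrays. Python 3.11.15, pandas 2.3.3 and statsmodels 0.14.6 were used. Alternatives were the floor, the reading of several probe sets, cross-hybridising probe sets, 4 scalings and fold thresholds of 25% more and 2-fold.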

Additional observations from a re-analysis of the deposited data

How the results depend on the processing

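No paired analysis was possible because each group holds 1 array. The spread used to judge a move was the median SD between probe sets of 1 gene (0.083), which is no replicate error; the arrays cannot limit biological or technical error further. With no floor, the floor at the 25th percentile, centring on the median and the loess curve, the subunit counts and medians stayed within that spread or within 1.5 times the count, as did each single subunit gene. Apart from POLR2A, 10 of 27 subunit genes moved by more than the spread after averaging, 7 of 28 when probe sets were read singly, 3 of 25 without cross-hybridising ones and all 28 after centring on the hybridisation controls. With the floor at the 75th percentile, 19 subunit genes were left, 17 of them above the median of all genes. At least 1.5-fold higher were 4 (against 4.02% of 6021 genes), and the medians were 0.31 for Pol I and 0.23 for Pol III. The Pol III genes left were only POLR3K (0.63) and POLR3GL (-0.16), which lie on opposite sides of 0. POLR1A and POLR1E were no longer among the genes of Pol I. Averaging all probe sets of a gene gave 5 subunit genes at least 1.5-fold higher (against 4.27% of all genes). The medians were then 0.061 for the pair of Pol I and III and 0.32 for Pol III, which POLR3G, below the floor, did not enter. POLR2A was at 0.25, and 0 genes were higher in the other lists. Counting each probe set gave 15 higher (against 4.63% of all probe sets) and 56 above the median, and 0.33 for POLR2A. In the other lists 6 probe sets were higher and 6 lower, and how many these lists held was not counted. Of all probe sets 4.63% were higher and 7.07% lower. Without probe sets named for cross-hybridisation the Pol III median was 0.24, where POLR3G and POLR3K were no longer past the floor. Centring on the hybridisation controls left 1 subunit gene higher (POLR3G) and 1 lower (POLR3GL), turned the subunit median to -0.17 and the medians to -0.11 for Pol I, -0.20 for Pol I and III, -0.30 for all 3 enzymes, -0.19 for Pol II and -0.058 for Pol III, and gave 0.17 for POLR2A and 0 higher and 11 lower in the other lists; among all genes 0.480% were then higher and 37.1% lower. Centring on the poly-A controls left 6 of 29 subunit genes at least 1.5-fold higher, against 3.39% of all genes. Of the 81 genes of the other lists, 1 was then higher and 2 were lower, against 3.39% and 8.68% of all genes. At a threshold of 25% more, 16 of 29 subunit genes were higher, against 18.0% of all genes. Of the 81 genes of the other lists, 26 were higher and 4 lower, against 18.0% and 16.1% of all genes. At 2-fold, 1 subunit gene was higher, against 0.739% of all genes. In the other lists 1 was higher and 0 were lower, against 0.739% and 1.54% of all genes.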

Other observations

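Probe sets that the platform annotation gives to several genes were left out of the members, and 11 of them name a POLR gene. They include the copies POLR2J2, POLR2J3 and POLR2J4 and the readthrough locus of POLR2M with GCOM1, and their differences lay between -0.43 and 0.30. The brightest of them, shared by GCOM1 and POLR2M, read 9.40 on the knockdown array and 9.38 on the control array.

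Across the 29 subunit genes the difference and the mean level had a Spearman correlation of -0.39, and across all genes past the floor one of 0.0095. The points share the same 2 arrays and normalization, genes are not independent replicates, and the value is given as a description.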
